A study of Mus musculus with 5 samples.

Results

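Genes of germ cells and meiosis were followed while mouse embryonic stem (ES) cells were turned into spinal motor neurons with retinoic acid (RA). The genes are Stra8, Rec8, Dazl, Ddx4, Sycp1, Sycp2, Sycp3, Mael, Prdm14 and Pramel7, 10 of the 19897 genes with a matched probe. Stra8 was chosen by its large rise from ES to Day2 in these same arrays, and the other genes for their role, with earlier results of these data known. Each of the 10 genes had 1 probe with 1 spot per array, so no probe could be checked against a second one.

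The 5 samples were wild type by their labels, and each was measured on 1 Agilent one-colour array. ES was undifferentiated ES cells. Day2 was embryoid bodies (EBs, floating aggregates of differentiating cells) 8 h into RA, Day3 and Day4 were EBs with 1 and 2 days of RA, and Day7 was motor neurons after 5 days of RA, although its tissue label again names embryoid bodies. The labels name Shh as the second inducer, given with RA, and the study's text names the smoothened agonist SAG. All 4 later samples had received RA, and no sample without RA was set beside them at the same age, so RA and time in culture cannot be told apart. The sources used here do not say which of the study's ES cell lines gave the RNA.

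There was 1 array per time point, and therefore no spread between replicates and no test. A change of 2-fold (1 on the log2 scale) is used below as a rule of size, and "rose" and "fell" mean only that this size was reached. Signals are quantile-normalized log2 intensities. A probe that the scanner software did not mark as well above background on an array has no measured level there, and a change that starts or ends at such a probe is a bound. The software's own error estimate for a spot was close to 10% for the bright members, 10% for Stra8 on Day2, and 100% for Pramel7 on Day3. It covers the reading of a spot and not the culture. In RNA from whole cultures, more cells of a type and more RNA per cell cannot be told apart.

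The germ line is set aside early in the mouse embryo, and its cells enter meiosis only after they reach the gonad. There RA is known to switch on Stra8, whose protein starts the meiotic programme together with its partner MEIOSIN, and Rec8, which encodes the kleisin subunit of meiotic cohesin. Later steps need the synaptonemal complex, the protein zipper between paired chromosomes, to which Sycp1 contributes the transverse filaments and Sycp2 and Sycp3 the lateral elements. Dazl and Ddx4 encode RNA-binding proteins of germ cells, and Mael a protein of the piRNA pathway, which silences transposons. Prdm14 is needed to specify primordial germ cells and also holds ES cells in the naive state. Pramel7 belongs to a family of leucine-rich proteins found in germ cells and early embryos, and in ES cells it favours the removal of DNA methylation. In somatic and ES cells many germ cell genes are held down by a complex of MGA, MAX and E2F6, in which MGA and MAX recognise the E-box and E2F6 the E2F letters.

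The promoters below belong to Stra8 and Rec8, which rose, and to the 4 members that fell and held an E-box. RefSeq promoter sequence (250 bases before the start of the gene to 50 after it, assembly GRCm38.p6) was matched by symbol for 9 of the 10 genes, all but Prdm14. Each was searched on both strands for the half-site of the RA receptor in its form AGGTCA, its form GGGTCA, its form AGTTCA and its form GGTTCA, for the E-box CACGTG and for the E2F letters GCGGGAA. No match overlapped another in these 9 promoters. Capitals mark the matches, which are letters and not shown sites. Stra8 lies at chr6:34920698-34920997 on the plus strand and Rec8 at chr14:55617916-55618215 on the plus strand. Ddx4 lies at chr13:112652261-112652560, Sycp1 at chr3:102936051-102936350 and Mael at chr1:166238695-166238994, all on the minus strand, and Sycp3 at chr10:88459337-88459636 on the plus strand. Read 5′ to 3′ along the gene, the first pair belongs to genes that rose and the other 4 to genes that fell.
Stra8: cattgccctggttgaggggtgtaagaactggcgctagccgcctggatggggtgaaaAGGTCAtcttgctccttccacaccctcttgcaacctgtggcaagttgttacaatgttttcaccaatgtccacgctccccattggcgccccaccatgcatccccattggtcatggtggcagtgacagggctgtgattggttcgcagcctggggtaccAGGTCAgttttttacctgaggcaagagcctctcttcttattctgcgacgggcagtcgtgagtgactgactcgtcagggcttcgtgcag
Rec8: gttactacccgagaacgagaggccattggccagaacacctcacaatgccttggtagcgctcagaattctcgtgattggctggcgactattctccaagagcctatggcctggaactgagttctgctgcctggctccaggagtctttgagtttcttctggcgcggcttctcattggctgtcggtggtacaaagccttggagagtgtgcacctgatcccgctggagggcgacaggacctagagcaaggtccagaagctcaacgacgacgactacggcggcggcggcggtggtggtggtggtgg
Ddx4: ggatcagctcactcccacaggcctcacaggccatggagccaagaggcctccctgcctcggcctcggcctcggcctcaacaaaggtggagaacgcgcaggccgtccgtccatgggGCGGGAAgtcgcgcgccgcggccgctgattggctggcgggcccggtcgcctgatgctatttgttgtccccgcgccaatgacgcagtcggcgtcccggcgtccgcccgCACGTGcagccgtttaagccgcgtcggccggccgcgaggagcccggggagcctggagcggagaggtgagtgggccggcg
Sycp1: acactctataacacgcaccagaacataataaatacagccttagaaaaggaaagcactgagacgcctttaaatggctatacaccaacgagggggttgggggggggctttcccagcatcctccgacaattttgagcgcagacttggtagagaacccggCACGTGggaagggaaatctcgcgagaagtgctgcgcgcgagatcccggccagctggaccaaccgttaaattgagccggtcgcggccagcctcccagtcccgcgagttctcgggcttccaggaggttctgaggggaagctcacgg
Sycp3: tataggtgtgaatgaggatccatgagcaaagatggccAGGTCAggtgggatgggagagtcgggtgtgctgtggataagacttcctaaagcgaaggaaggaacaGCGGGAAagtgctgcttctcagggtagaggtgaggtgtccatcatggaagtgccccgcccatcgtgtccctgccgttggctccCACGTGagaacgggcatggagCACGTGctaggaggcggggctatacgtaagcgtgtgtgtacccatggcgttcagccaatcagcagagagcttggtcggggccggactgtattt
Mael: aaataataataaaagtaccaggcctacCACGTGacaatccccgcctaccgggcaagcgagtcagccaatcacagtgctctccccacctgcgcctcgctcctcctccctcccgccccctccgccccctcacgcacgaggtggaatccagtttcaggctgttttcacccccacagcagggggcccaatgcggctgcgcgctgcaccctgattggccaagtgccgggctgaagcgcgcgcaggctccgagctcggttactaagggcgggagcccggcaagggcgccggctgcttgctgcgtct

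The Stra8 promoter held the half-site AGGTCA in 2 places, with its first base at -194 and -38 from the start of the gene. The Rec8 promoter held none of the letters searched. Ddx4, Sycp1 and Mael each held 1 E-box and Sycp3 held 2, which begin at -64 and -43 from its start. Ddx4 and Sycp3 also held the E2F letters, and Sycp3, which fell, held the half-site AGGTCA as well, at -213. Among the other members, Sycp2 held 2 half-sites of the form GGGTCA, and Dazl and Pramel7 held nothing that was searched. So 4 of the 9 promoters had an E-box, against 7.15% of all 32851 promoters of this length in the table, 3 had a half-site against 43.7%, and 2 had the E2F letters against 4.60%. At least 2 half-sites were found in 13.1% of all promoters. The same search found 2 half-sites at Cyp26a1 and 3 at Rarb, both known RA targets. The number of CpG dinucleotides ranged from 1 at Pramel7 to 38 at Ddx4, with a median of 18 over the 9 genes and 7 over all promoters. These matches are given as a description, since the letters were chosen with the expression results known.

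The Day2 array differed from the other 4 in its dim probes, which touches every change that starts or ends there. Olfactory receptor (Olfr) genes, ERCC spike-in probes and vomeronasal receptor genes are not expected to give signal in these cells. On Day2 70.0% of the Olfr probes were well above background, against 8.74% to 14.1% on the other arrays, and over all probes the share was 86.7% against 57.5% to 65.7%. Of 771 Olfr genes with a value, 26.7% rose from ES to Day2. How much of any Day2 result comes from this raised dim signal was not tested. Day7 was hybridised on a second slide, and there a difference of slide cannot be told apart from one of time. The choice of scaling moved the balance of all changes: of the genes past 2-fold from ES to Day2, 48.7% had risen, but 74.9% when each array was shifted to its 75th percentile. For Day3, Day4 and Day7 the shares were 60.3%, 54.1% and 50.4%, and 48.1%, 45.8% and 40.5% with the shift. The shift moved the median change of all genes to Day7 from -0.07 to -0.35.

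The labels were set against marker genes. Of 11 naive pluripotency genes, 6 had fallen on Day2 (10 with the shift) and 8 on Day7, beside 11.3% and 24.4% of all genes, among them Pou5f1 (fell by 4.17 on the log2 scale by Day7) and Esrrb (fell by 3.64). The progenitor gene Olig2 was highest on Day4, at 11.47, but stood at 10.34 in ES, above its 8.47 on Day2, 7.87 on Day3 and 7.35 on Day7. Nkx6-1, the other progenitor gene, stood at 6.72 in ES and 12.73 on Day4, but was highest on Day7, at 14.31. On Day7 the motor neuron genes Isl1 and Lhx3 stood at 13.25 and 11.27, up from 7.18 and 8.99 in ES, and Chat, which makes acetylcholine, was at 12.21 after not being well above background in ES. Mnx1 is not analysed here. No label names germ cells, and the germ cell gene Nanos3 was between 10.85 and 11.84 on all 5 arrays.

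**Figure D1:**
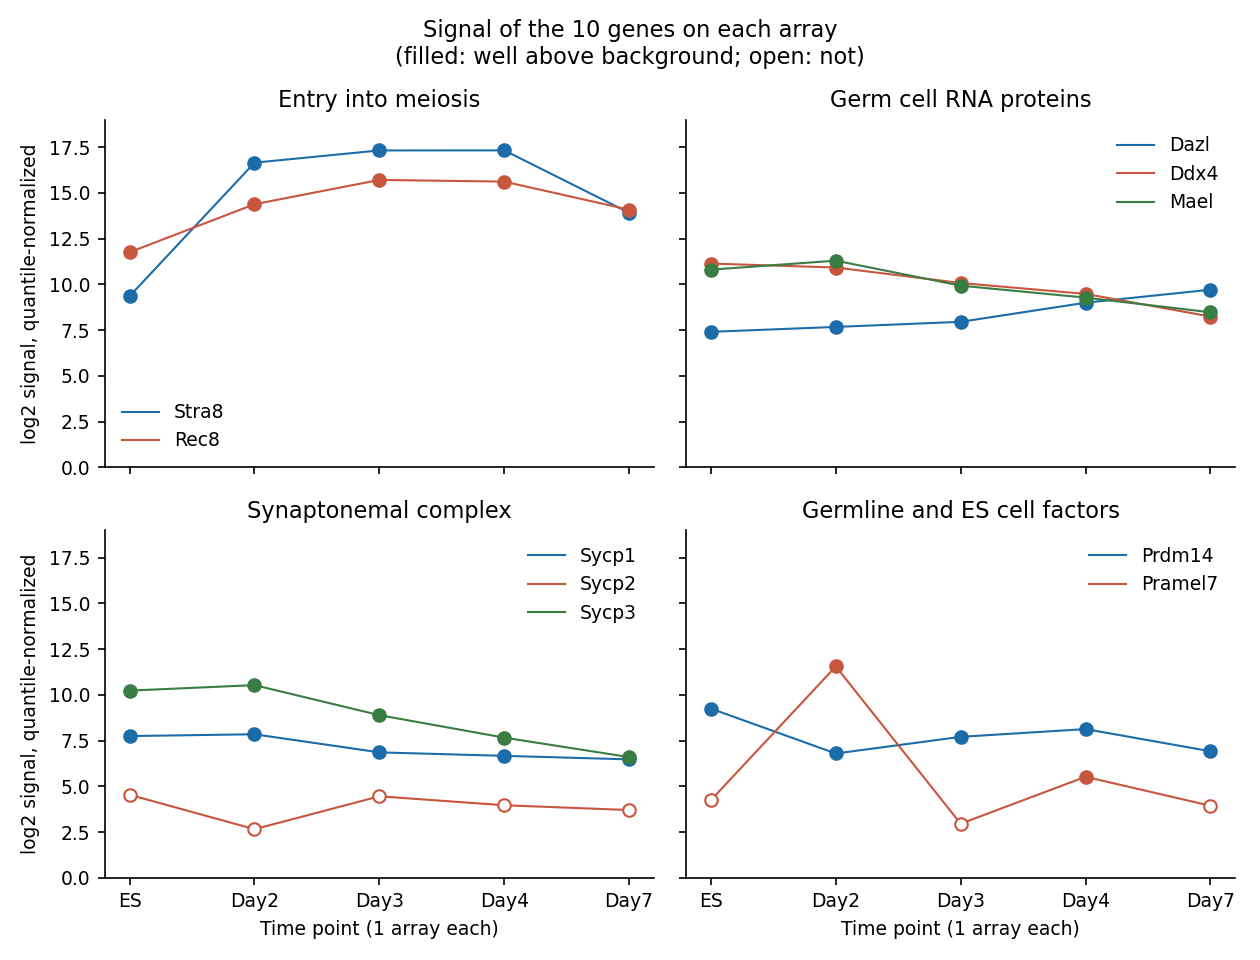
Quantile-normalized log2 signal of the 10 genes (vertical axis) on the 5 arrays (horizontal axis, 1 array per time point), grouped by role. Filled points are well above background and open points are not. On this normalized scale Stra8 and Rec8 rose on Day2 and were highest on Day3 and Day4. Ddx4, Mael, Sycp1 and Sycp3 changed by less than 2-fold until Day2 and then declined.

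Both members that act at entry into meiosis, Stra8 and Rec8, were higher than in ES at all 4 later time points. The log2 signal of Stra8 was 9.36 in ES and 16.65 on Day2, held at 17.32 on Day3 and Day4, and was 13.91 on Day7, well above background on each array. It was therefore already measurable in ES cells, was close to its highest value 8 h into RA, and had come down part of the way on Day7. The scanner intensities behind these values were 737, 145323, 142914, 101036 and 18407, and none was marked as saturated.

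Stra8 rose 157-fold from ES to Day2, which is the value that chose it. On Day3 and Day4 it was 249-fold and 250-fold above ES, and on Day7 23.5-fold. From Day2 to Day3 it moved by 0.67 on the log2 scale, which is under 2-fold, and Day3 and Day4 were level to 2 decimals, although without normalization the step between them was -0.50. The fall from Day4 to Day7 was 10.6-fold. The values of 2 Olfr genes from ES to Day2 were at or above that of Stra8, the highest being a lower bound of 8.13 for Olfr38. No Olfr value reached that of Stra8 on Day3, Day4 or Day7, although some of these are lower bounds too. Only 162, 196 and 183 of 1067 Olfr genes had a value on those days, against 771 on Day2. These changes start from the ES reading by which Stra8 was chosen, so nothing is read from this comparison. The Stra8 rise to Day3 was 7.95 when the arrays were normalized without Day2.

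The log2 signal of Rec8 was 11.75 in ES, then 14.38, 15.70, 15.61 and 14.08 on Day2, Day3, Day4 and Day7. Like Stra8 it had its highest normalized values on Day3 and Day4 and had come part of the way back on Day7. This order depended on the scaling. The scanner intensity of Stra8 was highest on Day2, and that of Rec8 was 28720 on Day2, 42873 on Day3 and 27288 on Day4. Rec8 was 6.16-fold above ES on Day2, 15.5-fold on Day3, 14.5-fold on Day4 and 5.01-fold on Day7. Unlike Stra8 it passed 2-fold again between Day2 and Day3, by 1.33 on the log2 scale, although that step was 0.58 without normalization. From Day4 to Day7 it fell 2.90-fold, although without normalization this step was -0.42 on the log2 scale.

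The other genes of meiotic entry and of meiotic cohesin moved less. Of 5 meiotic entry genes, Stra8 and Rec8 were the 2 that rose on Day2, although 3 rose with the shift to the 75th percentile and 4 without normalization. Since 10.7% of all genes rose on Day2 and Stra8 was chosen by that change, nothing is read from this count. On Day7 Meioc, which prolongs meiotic prophase, had fallen by 1.62. Ythdc2, its RNA helicase partner, stayed within 2-fold of ES at every time point. Meiosin was not analysed here. Of 3 meiotic cohesin genes, Smc1b rose with Rec8 on Day2 (1.62), Day4 (1.67) and Day7 (2.00). On those days 10.7%, 17.0% and 24.8% of all genes rose. Stag3 lay between -0.29 and 0.28. Without normalization Rec8 alone of these 3 genes rose on Day4. Among 5 subunits of mitotic cohesin none passed 2-fold on Day2, and afterwards Stag2 alone did, falling by 1.03 to 1.12, although with normexp none had on Day3. With the shift 2 of the 5 had fallen on Day4 and on Day7, and without normalization 4 had on Day3, all 5 on Day4 and 2 on Day7. Of all genes, 10.7% rose and 11.3% fell on Day2, and 10.2%, 14.4% and 24.4% fell at the later time points, so counts of 0 or 1 in 5 are not read as a result about these subunits. The median over mitotic cohesin was -0.22 on Day2 and -0.18 on Day7, beside 0.00 and -0.07 over all genes.

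Genes known to respond to RA were set beside them. All 7 genes of this RA response list rose at each of the 4 time points, with a median of 4.78 on Day2, 5.72 on Day3, 5.95 a day later and 3.39 on Day7, although 6 did so on Day7 with normexp. Of all genes, 10.7%, 15.6%, 17.0% and 24.8% rose at these time points in turn. Cyp26a1, which breaks RA down, rose by 7.16, 8.90 and 8.72 on the first 3 of these and stood 1.58 above ES on Day7. The RA receptor gene Rarb, by contrast, was 5.27 above ES on Day2 and 5.60 on Day7.

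Likeness of pattern was measured as the Euclidean distance between mean-centred log2 signals over the 5 arrays, among 18635 genes. Readings not well above background were first raised to the floor of their array, the lowest signal marked well above background there, where they lay under it. Genes close to Stra8 were Hoxb1, Dhrs3, Hoxb2 and Zfp703, at distances of 1.94 to 2.27. The 5 closest to Rec8 were Abhd15, Hacd4, Hkdc1, Dleu7 and Gpat2, at 0.53 to 1.01, and the 5 closest to Prdm14 were Vwf, Gpc4, Gm5901, Foxi3 and Zfp36, at 0.27 to 0.45. Hoxb1 and Dhrs3 are also in the RA response list. The 4 genes named for Stra8 lay farther from it than the 5 nearest genes of Rec8 or Prdm14 from theirs.

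**Figure D2:**
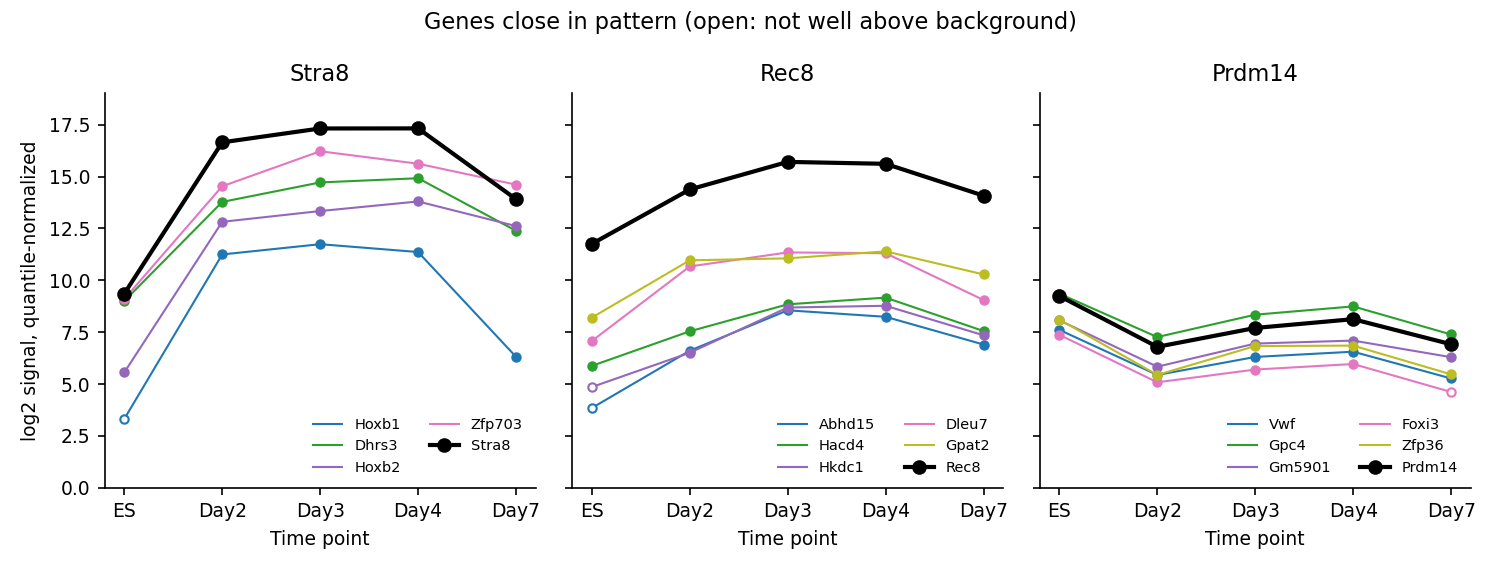
Quantile-normalized log2 signal over the 5 arrays for Stra8, Rec8 and Prdm14 (black) and genes near to each in pattern (coloured, 4 for Stra8 and 5 for the others). Open points were not well above background. The neighbours of Stra8 shown rose between ES and Day2 and were lower on Day7 than on Day3 and those of Prdm14 had their lowest or next to lowest value on Day2.

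The 3 genes of germ cell RNA proteins went in different directions. Dazl was at 7.40 in ES, then 7.67, 7.95, 8.99 and 9.71 on Day2, Day3, Day4 and Day7, with its highest values on Day4 and Day7. The order of Day2 and Day3 depended on the scaling, since the step between them was 0.28 here, -0.19 with the shift and -0.92 without normalization. It was within 2-fold of ES on Day2 and Day3, 3.01-fold above it on Day4 and 4.93-fold on Day7. Without normalization the Day4 change was 0.71 on the log2 scale.

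Ddx4, the RNA helicase also called Vasa, stood at 11.13 in ES, then 10.92, 10.07, 9.48 and 8.24 on Day2, Day3, Day4 and Day7. It was lower at each time point than at the one before, although without normalization the last step turned to 0.048 on the log2 scale, and was 2.09-fold below ES on Day3 (-0.99 on the log2 scale with normexp, under 2-fold), 3.15-fold on Day4 and 7.43-fold on Day7. Mael was at 10.80 in ES, then 11.29, 9.93, 9.27 and 8.47 on Day2, Day3, Day4 and Day7, slightly higher on Day2 and then lower at each time point, although without normalization its step from Day4 to Day7 turned to 0.50. It was within 2-fold of ES on Day3, 2.89-fold below on Day4 and 5.02-fold below on Day7. Dazl thus rose over the same interval in which Ddx4 and Mael fell, and the probes of all 3 were well above background throughout.

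In the wider list of germ cell RNA and piRNA genes, 3 of 21 with a value rose on Day2 and none fell, beside 10.7% and 11.3% of all genes, with a median of 0.11. On Day7, 4 of 17 rose, near the 24.8% of all genes, and 9 fell, beside 24.4%, with a median of -1.26. Among those that fell were the Tudor domain genes Tdrd5 (by 4.23) and Tdrd12 (by 3.74). Tdrd7, another gene of this family, had risen by 1.15 on Day2 and 2.85 on Day7, and Tdrkh, which binds PIWI proteins, by 2.25 on Day7. With the shift to the 75th percentile 8 of the 21 genes rose on Day2 in place of 3.

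By Day7, 6 of the 7 synaptonemal complex genes with a value had fallen, beside 24.4% of all genes. None rose at any time point, apart from 1 of 7 on Day2 with the shift to the 75th percentile or without normalization. Of all genes, 10.7%, 15.6%, 17.0% and 24.8% rose on Day2, Day3, Day4 and Day7, so nothing is read from the lack of rises in so few genes. Sycp3 was at 10.23 in ES, then 10.53, 8.89, 7.66 and 6.60 on Day2, Day3, Day4 and Day7. It had changed 1.23-fold on Day2, and was then 2.54-fold, 5.93-fold and 12.4-fold below ES. With quantile normalization this was the largest fall among the 10 genes by Day7.

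Sycp1 was at 7.75 in ES, then 7.84, 6.86, 6.66 and 6.47 on Day2, Day3, Day4 and Day7. Its fall was smaller, 2.12-fold by Day4 and 2.42-fold by Day7, and both were under 2-fold with normexp background correction, at -0.68 and -0.80 on the log2 scale. Sycp2 was not well above background on any of the 5 arrays, Day2 included, and has no value. Its measured signal lay between 2.66 on Day2 and 4.54 in ES.

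Over the 8 synaptonemal complex genes, 0 of 7 with a value rose or fell on Day2, 3 of 6 had fallen on Day3, 5 of 7 on Day4 and 6 of 7 on Day7. Of all genes 10.7% rose and 11.3% fell on Day2, and 10.2%, 14.4% and 24.4% fell on the later days. The median moved from 0.10 on Day2 to -0.95, -1.47 and -2.27. Syce2 and Syce3, which encode proteins of its central element, had fallen by 3.32 and 2.66 on Day7. The remaining one with a value on Day7, Tex12, was dim in ES and its bound was 0.70. Of 18 genes of the chromosome axis and of recombination with a value on Day2, 3 rose (Hormad1, Msh5 and Tex11, by 1.03 to 1.13) and 3 fell (Spata22, Mei4 and Meiob, by 1.22 to 3.01), beside 10.7% and 11.3% of all genes. On Day7, 2 of 18 had risen and 10 had fallen, Mnd1 by 3.74, beside 24.8% and 24.4% of all genes. Spo11, which makes the breaks that start recombination, was not well above background on any array. With normexp none of these 18 genes passed 2-fold on Day2, and 6 fell by Day7. Their median on Day2 was 0.22, and it ranged from 0.14 to 1.03 over the alternatives, so the Day2 counts depend on the processing.

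Prdm14 was lower than in ES at all 4 later time points. It was at 9.24 in ES, then 6.79, 7.70, 8.13 and 6.92 on Day2, Day3, Day4 and Day7, lowest on Day2 and Day7. It was 5.47-fold below ES on Day2, 2.91-fold on Day3, 2.17-fold on Day4 and 5.02-fold on Day7, although with normexp the Day4 change was under 2-fold (-0.92 on the log2 scale). The Day2 change ranged from -2.45 to -1.60 over the alternatives. Its Day2 reading lay under the 95th percentile of the Olfr probes on that array, 7.59. Its step from Day2 to Day3 was 0.91 on the log2 scale, but 0.15 with the shift, and it turned to -0.58 without normalization. Nanog also fell on Day2, by 2.41, but its change was -0.35 on Day3 and 0.78 on Day4, when it stood above ES. Of 11 genes listed for primordial germ cells, Kit, the receptor for stem cell factor, was the 1 that rose on Day2 (1.81) while 5 fell. On Day7 1 had risen and 7 had fallen. Of all genes, 10.7% and 11.3% rose and fell on Day2, and 24.8% and 24.4% on Day7. The 1 that rose on Day7 was Kitl, which encodes the ligand of Kit and was among the 5 that fell on Day2. Its changes were -1.49 on Day2 and 3.70 on Day7. Dppa3 and Tfap2c were 16.0-fold and 6.22-fold below ES by then. The median of the list was -0.94 on Day2 and -2.33 on Day7.

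Pramel7 had its highest signal on Day2. Its probe read 11.55 on Day2 and 5.52 on Day4, and was not well above background in ES, on Day3 or on Day7, where it read 4.25, 2.96 and 3.94. From ES to Day2 it was at least 158-fold higher, and from Day2 to Day3 at least 80.6-fold lower. On the log2 scale the first bound was 7.30, and it became 4.97 with the floor at the ERCC probes, 5.13 with the floor at the Olfr probes and 5.08 with normexp. The second was -6.33, and became -5.02 with normexp. The bound for ES to Day4 was 2.42-fold and fell to no change when the floor was set at the ERCC probes. The 5 genes closest to it in pattern were Olfr670, Misp, Gip, Prss28 and Igsf6, at distances of 0.38 to 0.85. These neighbours were chosen after the values had been seen. Olfr670 was well above background on Day2 and Day4 and on no other array. With dim readings raised to the floor, it was level with Pramel7 on Day3 and Day7 by rule and close to it in ES. Their closeness on those arrays was therefore fixed in advance. Of 8 genes of the Pramel family, Pramel3 and Pramel14 also had a lower bound past 2-fold on Day2 (2.11 and 2.95), Pramel12 and Pramel13 were measured at -0.80 and -0.79, and the part of the raised dim signal in these values was not tested.

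**Figure D3:**
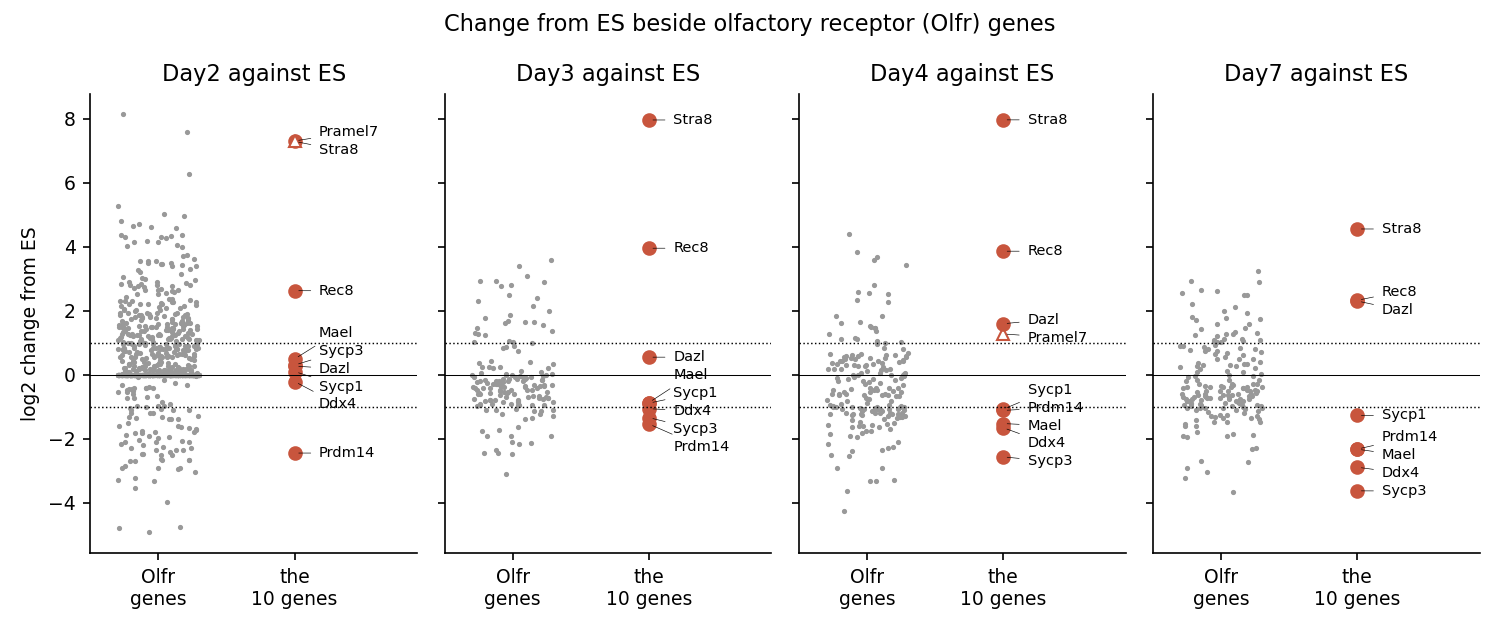
Log2 change from ES (vertical axis) on Day2, Day3, Day4 and Day7 for the Olfr genes with a value (grey, 1 point per gene, scattered sideways) and for the 10 genes (red). Open triangles are lower bounds, grey points at 0 include genes with no fold, dotted lines mark 2-fold, and Sycp2 has no value. Stra8, chosen by its rise from the same ES reading, lies above every Olfr point on Day3, Day4 and Day7. Rec8 does so on Day3, and Pramel7 is high on Day2 only, where the Olfr genes spread most widely.

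Read as a group against all genes, the 10 were divided. On Day2, 3 of the 9 with a value rose (Stra8, Rec8 and Pramel7) and 1 fell (Prdm14), where 10.7% of all genes tested rose and 11.3% fell, and since this contrast chose Stra8 nothing is read from it. On Day3, 2 of 8 rose and 3 fell, beside 15.6% and 10.2% of all genes. On Day4, 4 of 9 rose and 5 fell, beside 17.0% and 14.4%. On Day7, 3 of 8 rose and 5 fell, beside 24.8% and 24.4%. With quantile normalization every gene with a value was past 2-fold against ES on Day4 and on Day7. On Day4 Sycp1, Prdm14 and Pramel7 were not with normexp, Dazl and Pramel7 were not without normalization, and Pramel7 was not with the ERCC floor. On Day7 Sycp1 was not with normexp. The median change of the members was 0.30, -0.88, -1.08 and -1.80 on the 4 days, and that of all genes 0.00, 0.06, 0.05 and -0.07. From Day2 to Day3, Rec8 rose and Sycp3, Mael and Pramel7 fell, where 13.0% of all genes rose and 7.76% fell.

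Genes known to hold germ cell genes silent were followed as well. None of 11 repressor genes passed 2-fold on Day2 (2 fell with the shift), where 10.7% of all genes rose and 11.3% fell, with a median of -0.07, and on Day7 1 had risen and 4 had fallen, beside 24.8% and 24.4% of all genes. Dnmt3b, a DNA methyltransferase that sets new marks, had fallen by 2.67 on Day3, 3.71 on Day4 and 4.99 on Day7. Dnmt3a, the related enzyme, had risen by 1.92 on Day7. Of the complex that recognises the E-box and E2F letters, Mga and E2f6 were within 2-fold of ES at every time point, Max had fallen by 1.05 on Day3, and Pcgf6 and L3mbtl2 had fallen by 1.11 and 2.22 on Day7.

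Genes of later germ cells were followed too. Of 7 spermatid genes none rose at any time point (1 on Day2 with the shift, 2 without normalization), beside 10.7%, 15.6%, 17.0% and 24.8% of all genes. On Day2 4 of the 7 fell, beside 11.3% of all genes, although none did with the shift, without normalization or with normexp. Acrv1 and Odf1 were well above background on Day2 alone. Of 9 oocyte genes, Bmp15 was not well above background on any array, and Zp3, which encodes a protein of the egg coat, fell by 3.56 by Day7. Gdf9, an oocyte growth factor, was the 1 oocyte gene that rose, by 1.15 on Day3, 1.20 on Day4 and 1.93 on Day7. That is 1 of the 4 or 5 with a value on those days, beside 15.6%, 17.0% and 24.8% of all genes that rose.

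**Figure D4:**
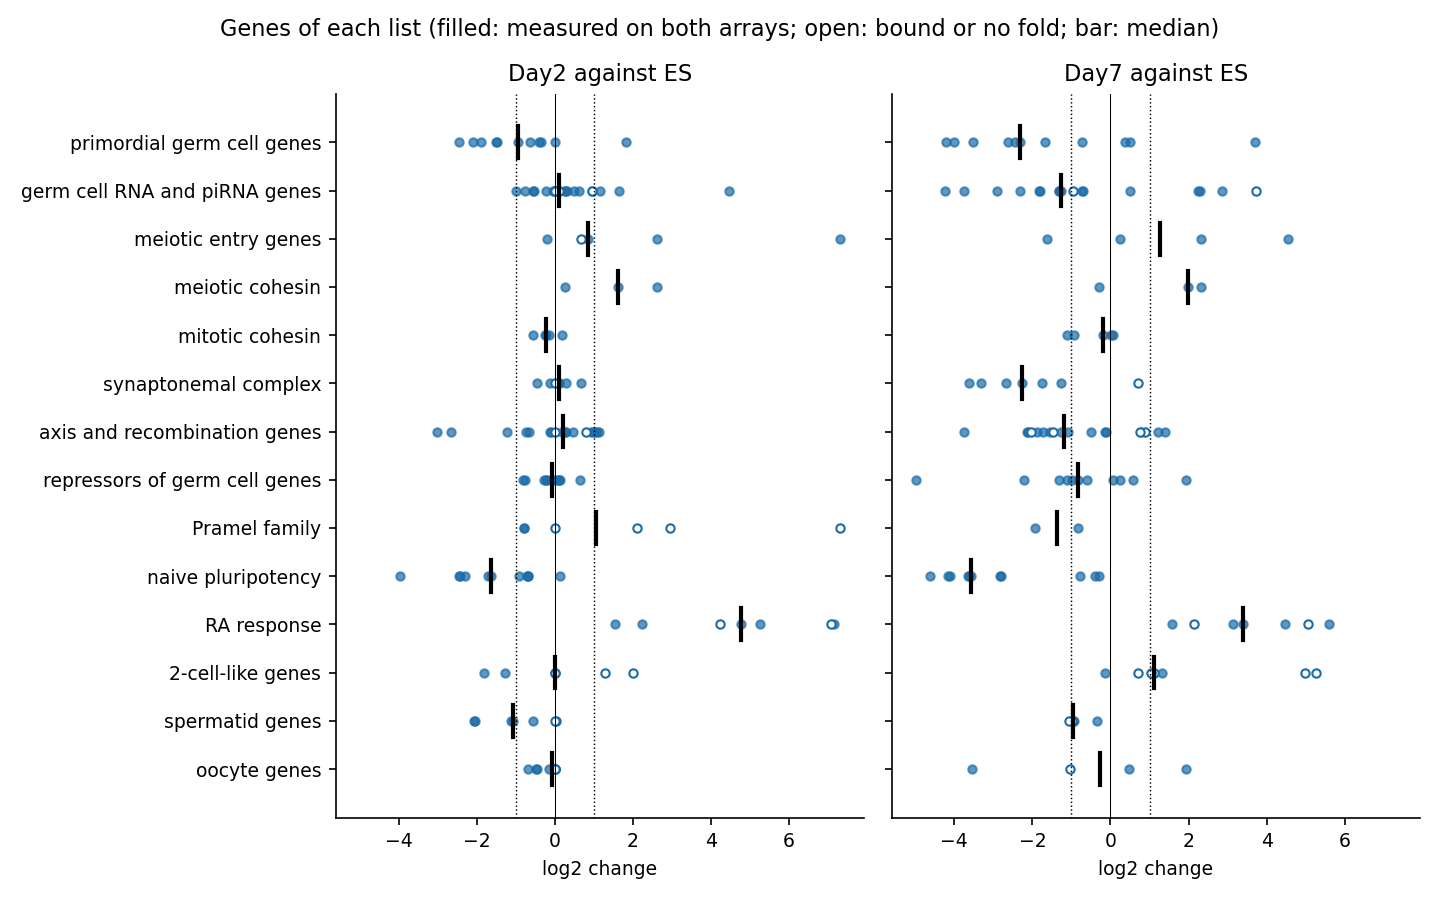
Log2 change from ES on Day2 and Day7 (horizontal axes) of each gene with a value, by gene list (vertical axis). Filled points were measured on both arrays, open points are bounds or genes with no fold, black bars are medians and dotted lines mark 2-fold. The median of the synaptonemal complex genes moves from 0.10 to -2.27, and all RA response genes lie right of the line on both days.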

How the data were processed

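RNA of 5 samples was measured on Agilent one-colour arrays of mouse genes, 1 per time point, and read with Agilent Feature Extraction 10.5.1 per the labels' processing notes. The deposited scanner files hold, per spot, the processed intensity, which the authors' scanner software had background-subtracted but not scaled between arrays. The authors also deposited a table of log2 values, which differed from the log2 processed intensity by a constant for each array, within 0.01 for 100% of probes. Its column medians ran from -3.72 to -2.62. The legend of the study names Quantile analysis, so quantile normalization of the log2 intensities (limma 3.58.1, R 4.3.3) was the main setting.

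Controls and outlier-flagged spots were dropped. Accessions of 26300 of 55681 mouse probes matched a RefSeq gene (assembly GRCm38.p6, used for names and promoters only, since the array was designed on an earlier build), giving 19897 genes. The brightest probe stood for its gene. For each array a floor was taken, the lowest signal of any probe marked well above background there. A dim probe kept its own reading if that was above the floor and otherwise took the floor. Genes dim on both arrays were given no change, and a gene whose bright reading lay under the level of its dim one was entered as 0. Comparisons were computed in Python 3.11.15 (numpy 2.4.6, pandas 2.3.3) and plotted with matplotlib 3.10.9. The step that computes changes and bounds was tested on a copy of the ES array with known changes put in. Normalization and the matching of probes to genes were not tested in this way, and raised dim signal like that of Day2 was not simulated. The number of arrays limits the precision, and with 1 per time point no p-values were computed.

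The members, gene lists, motifs and alternatives were chosen with earlier results of these data known. Besides the members, the text names genes of each list that passed 2-fold against ES (at most 4 per direction and time point) and the 5 genes nearest in pattern to Stra8, Rec8 and Prdm14. A gene that is not reported here was left out of the lists and of these neighbours. Marker genes and other genes named with their values, such as the neighbours of Pramel7, were chosen by role or after their values were seen. The alternatives were a shift to the 75th percentile, no normalization, normexp (offset 50, on median spot signals) before quantile normalization, the authors' log2 table, another detection flag, other filters, floors and probe choices, and thresholds of 1.5-fold and 4-fold. Normalization without Day2 or without Day7 and a floor at the Olfr probes were added after seeing the data.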

Additional observations from a re-analysis of the deposited data

Results flagged for a closer look

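Probes that should find no target in these cells gave signal on Day2. On that array 65.6% of the ERCC spike-in probes were well above background, against at most 9.38% on any other array. The same held for 70.0% of the olfactory receptor probes, against at most 14.1%, and for 58.9% of the vomeronasal receptor probes, against at most 14.3%. Negative control spots had a raw median of 37.0 on Day2, inside the range of 31.5 to 70.0 over the 5 arrays. Of the 10 genes, Pramel7 is the one that was well above background on Day2 and not in ES, and the part of this signal in its value was not tested.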

How the results depend on the processing

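No paired analysis was possible because there were no replicates (1 array per time point), and for the same reason none could be left out. A block for slide was not run, since only Day7 lay on its slide. The rise of Stra8 from ES to Day2 ranged from 7.06 to 7.62 over 14 alternatives, and that of Rec8 from 2.44 to 2.68. The Stra8 step from Day2 to Day3 ranged from -0.02 to 0.76, and at a threshold of 1.5-fold its 0.67 passed. The number of members lowered on Day2 became 2 with the positive and significant flag and with no filter on dim probes. The number lowered on Day3 became 5 without normalization and at 1.5-fold, and 0 at 4-fold. The number raised on Day4 became 2 without normalization and at 4-fold, and the number lowered on Day4 became 3 with normexp and 1 at 4-fold. Without normalization the changes of Ddx4 and Sycp3 from Day4 to Day7 turned to 0.048 and 0.088, and Sycp1 moved to 1.01. The Pramel family median on Day2 was 1.05, and turned to -0.52 with no filter, -0.79 with probes above background on both arrays, and -0.79 with the floor at ERCC or Olfr probes. On Day4 it was 1.09, and turned to -0.14 with no filter, -0.56 with both arrays and -0.25 with the Olfr floor. With both arrays required, the 2-cell-like median turned from 1.06 to -0.59 on Day3 and from 2.43 to -0.10 on Day4. The spermatid median on Day2 turned from -1.06 to 0.26 with the 75th percentile shift, 0.25 with the authors' table and 0.48 without normalization. The cause was not tested in these cases. Counting each other change of a single member under each alternative, 779 kept their side of the threshold, 35 became weaker, 27 stronger, 2 reversed and 1 moved. Among the 779, 8 turned in direction below 2-fold, in 4 changes: Mael from Day4 to Day7 and Prdm14 from Day2 to Day3 without normalization, and Stra8 from Day3 to Day4 and Dazl from Day2 to Day3 without normalization, with the shift and with the authors' table. Dim signal leaves Sycp2 with no value and Pramel7 with bounds.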

Other observations

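Genes that mark the 2-cell-like state, a rare condition of ES cells that resembles the 2-cell embryo, had their highest values on Day4 or Day7. Zscan4c was not well above background in ES and stood at 5.47, 8.86, 11.08 and 9.15 on Day2, Day3, Day4 and Day7. Zscan4f followed the same order, at 7.10, 9.87, 12.46 and 10.35. Their bounds against ES on Day4 were 6.91 and 7.36 on the log2 scale. The genes of the Zscan4 cluster are near-identical copies, so a probe may read more than 1 of them. Of 7 genes of this list, 5 had risen on Day4 and 5 on Day7, beside 17.0% and 24.8% of all genes, although 2 had on Day7 with the shift to the 75th percentile and 3 on both days with normexp. Zfp352 fell by 1.27 on Day2 and rose by 1.33 by Day7.

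Tex101, which encodes a surface protein of germ cells, was at 6.99 in ES, then 11.45, 6.64, 6.79 and 6.25 on Day2, Day3, Day4 and Day7, a rise of 4.46 that was present on Day2 alone. From ES to Day2 the Olfr genes had a 95th percentile of 3.17 and reached 8.13. The part of the raised dim signal in the Tex101 value was not tested. Nanos2, a gene of male germ cells, was at 7.90 on Day7 with a bound of 3.72 against ES.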
